A study of Mus musculus with 3 samples.

Results

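The enzymes of haem synthesis were examined in haematopoietic stem cells sorted from mouse bone marrow. The set was defined by pathway membership, from Alas1 and Alas2 at the entry to Fech at the end, and not by any measured value. Earlier results of these data were known when it was chosen. All 8 listed enzymes had a probe set of their own among 19938 measured genes, with 1 probe set each. The cells came from wild-type C57Bl/6 mice aged 6 to 10 weeks and were sorted as KLS SLAM cells. These lack mature lineage markers (Lin-), CD48 and CD41 and carry c-Kit, Sca-1 and CD150. Their RNA was amplified, labelled with biotin and hybridised to 3 single-colour arrays, called array 1, array 2 and array 3. No other genotype or treatment was analysed, so the comparisons are between replicate arrays and between genes and a background range. The labels do not say whether each array came from its own animal or from pooled animals. A p-value between arrays therefore measures only the spread between these samples, which may be technical.

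Haem, the iron-holding ring of haemoglobin, cytochromes, catalase and peroxidases, is made by a pathway that starts and ends in mitochondria and runs through the cytosol in between. The entry step joins glycine and succinyl-CoA and is catalysed by 5-aminolevulinate synthase, which mammals encode as a form used in most tissues, Alas1, and a form used in red cell precursors, Alas2. Stem cells make no haemoglobin, but they need haem for respiration and for other haem proteins, and the pathway expands when their descendants enter the red cell lineage.

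The promoters of 7 of the 8 enzyme genes are in RefSeq's table for GRCm38.p6, from 250 bases before to 50 bases after each start, in 10 windows. Fech was not matched. These sequences are shown because the list holds genes with promoters of unlike make-up, and 3 of them hold the GATA words. Capitals mark the GATA words on either strand, AGATAA or AGATAG or TGATAA or TGATAG, which GATA1 and GATA2 read.
Alas2, chrX:150547167-150547416, plus strand: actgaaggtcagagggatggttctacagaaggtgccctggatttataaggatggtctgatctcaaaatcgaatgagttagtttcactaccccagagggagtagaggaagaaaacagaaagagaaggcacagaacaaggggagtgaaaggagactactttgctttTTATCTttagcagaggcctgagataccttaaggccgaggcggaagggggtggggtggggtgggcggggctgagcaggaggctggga
Cpox, chr16:58669958-58670207, plus strand: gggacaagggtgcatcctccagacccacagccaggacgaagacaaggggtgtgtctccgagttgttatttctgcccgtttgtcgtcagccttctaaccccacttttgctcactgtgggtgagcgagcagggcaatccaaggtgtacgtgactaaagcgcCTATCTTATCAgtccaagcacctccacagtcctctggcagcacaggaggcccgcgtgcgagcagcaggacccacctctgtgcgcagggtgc
Uros, the downstream start, chr7:133702501-133702750, minus strand: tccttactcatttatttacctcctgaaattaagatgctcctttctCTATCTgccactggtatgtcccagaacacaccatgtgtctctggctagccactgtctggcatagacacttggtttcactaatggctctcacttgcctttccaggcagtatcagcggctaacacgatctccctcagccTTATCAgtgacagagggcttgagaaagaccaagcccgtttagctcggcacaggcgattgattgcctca

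The GATA words occurred in a window of 3 of the 7 matched genes, Alas2, Cpox and Uros, and in 29.8% of all 32851 windows. Enzymes are counted here as genes with any matching window, and the 7 genes have 10 windows. Such counts are therefore not on the same footing as the shares of windows. Alas2 held 1 such word, 86 bases before its start. Cpox held a pair that overlap, 91 and 86 bases before its start, and a further match just after it. Uros, known to have a general and an erythroid promoter, has RefSeq starts 6795 bases apart. Both of its GATA words lay before the downstream start, at distances of 205 and 68 bases, and none lay in the upstream window. The letters TATAAA, searched on both strands, occurred in Alas2 alone, 209 bases before its start, and in 13.6% of windows. The letters CACGTG, an E-box read the same on both strands, occurred in windows of Alad, Uros and Urod and in 7.15% of all windows. The pattern CCNCNCCC on either strand, which covers the CACCC box of Kruppel-like factors and also GC boxes, occurred in all 7 genes and in 49.5% of windows. The Alas2 window and the downstream Uros window were poor in CpG, with observed over expected ratios of 0.318 and 0.298. The other 8 windows ranged from 0.581 for Cpox to 1.16 for the upstream Uros window, beside a median of 0.384 over all windows. A match is a description of the letters and does not show a bound site, and the arrays did not measure promoter use.

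Array values below are log2 of the deposited intensity, read as linear, so 1 unit is a doubling. Without detection calls, a background limit was set on each array as the 95th percentile of 1231 olfactory, vomeronasal and taste receptor genes, which marrow cells are not expected to express. The limits of arrays 1, 2 and 3 were 6.30, 5.98 and 5.77. Of all genes 39.3%, 49.1% and 55.2% exceeded it on the respective arrays, and 36.8% did so on all 3. A value under the limit does not show that a transcript is absent. Since each probe set has its own affinity, no enzyme's level is ranked against another's.

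Of the haem synthesis enzymes, 2 of 8 exceeded the limit on every array, namely Alad and Urod, both enzymes of the cytosolic middle of the pathway. That share, 25.0%, is near the 36.8% of all genes. None of the 8 was below the limit on every array, beside 8378 of the 19938 genes. The remaining 6 fell on different sides on different arrays. Of them 2 passed on 1 array and 4 on 2 arrays, beside 1819 and 2396 of all genes. By array, 3 of 8 enzymes passed on array 1, 7 on array 2 and 6 on array 3. Without array 1, whose limit was the highest, 5 of 8 passed, with Alas1, Uros and Cpox added, beside 46.9% of all genes. At the stricter 99th percentile of the receptor genes 0 of 8 passed, beside 17.4% of all genes. The median of the 8 mean levels was 6.13, beside 5.96 over all genes.

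At the entry step, Alas1 was at 5.75 on array 1, 6.55 on array 2 and 5.77 on array 3, with a mean of 6.02 ± 0.46 (SD, n = 3). It was clearly over the limit on array 2 alone, below it on array 1 and level with it on array 3, at a distance of 0.0015. With the 1215 receptor genes whose names carry no suffix as the background, that distance was -0.0011. Alas2, the red cell form, was at 6.79, 6.15 and 5.76 on arrays 1, 2 and 3, with a mean of 6.23 ± 0.52. It was over the limit on arrays 1 and 2, and its distance from the limit on array 3 was -0.0078. The highest recorded value was on array 2 for Alas1 and on array 1 for Alas2, and both of these values were over the limit.

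Alad, which joins 2 molecules of aminolevulinate into porphobilinogen, was the steadiest enzyme of the list. It was at 6.74, 6.68 and 6.76 on arrays 1, 2 and 3, a mean of 6.73 ± 0.04, and its highest and lowest arrays differed 1.06-fold. On the same arrays 29, 13 and 6 of the 1231 receptor genes were as bright or brighter. Uros, which closes the ring as uroporphyrinogen III, was at 5.63, 6.25 and 6.15, a mean of 6.01 ± 0.33, and missed the limit on array 1 alone. Urod, which trims the side chains of that ring, was at 6.67, 7.46 and 6.99, a mean of 7.04 ± 0.40. It was over the limit by 0.37 on array 1, 1.49 on array 2 and 1.22 on array 3.

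The mitochondrial end of the pathway held the widest-ranging enzyme. Cpox, which oxidises coproporphyrinogen in the space between the mitochondrial membranes, was at 6.13 on array 1, 7.07 on array 2 and 7.38 on array 3. Its mean was 6.86 ± 0.65 (SD, n = 3). It missed the limit on array 1 alone, at a distance of -0.16, where 82 receptor genes were as bright. On arrays 2 and 3 there were 6 and 2 such genes. Ppox, which removes hydrogens to give protoporphyrin, was at 6.05, 5.88 and 6.11, a mean of 6.01 ± 0.12, and exceeded the limit on array 3 alone. Fech, ferrochelatase, which inserts the iron, was at 5.47, 6.18 and 5.39, a mean of 5.68 ± 0.44. It exceeded the limit on array 2 alone. For the 6 enzymes with a value below a limit, the differences between arrays given below are of recorded intensity only. A value below a limit is not told apart from background.

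**Figure D1:**
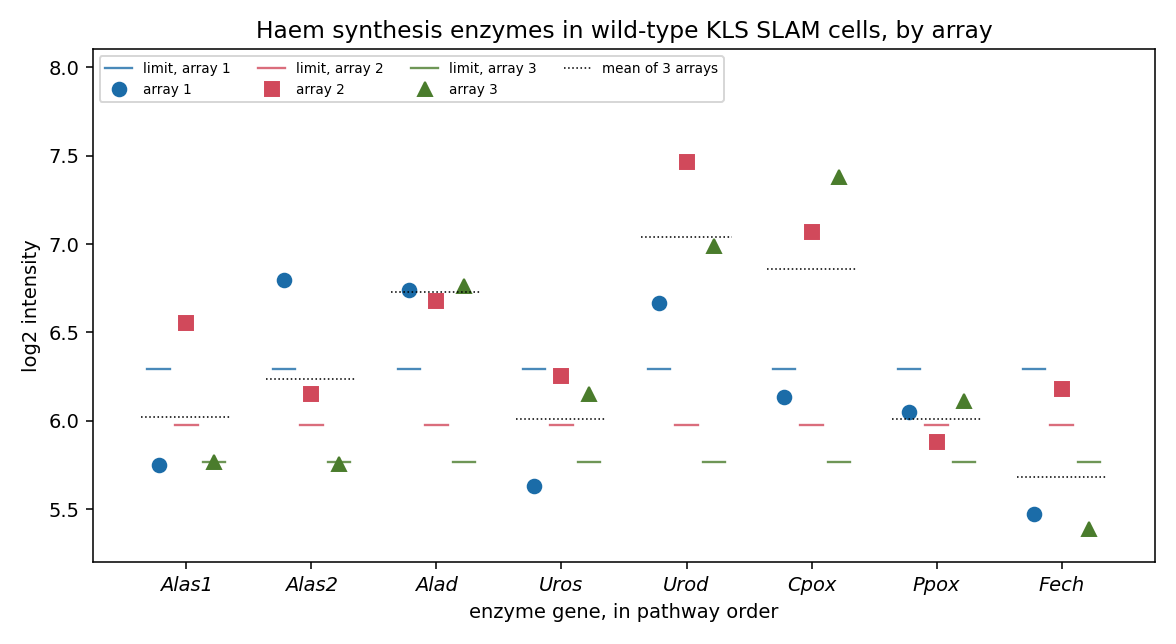
Log2 intensity (vertical axis) of the 8 enzyme genes in pathway order, with circles, squares and triangles for arrays 1, 2 and 3, short coloured lines for the background limit of each array (6.30, 5.98 and 5.77) and a dotted line for the mean of each gene. All 3 symbols of Alad and of Urod lie above the lines of their own colour, while each of the other 6 genes has at least 1 symbol below its line.

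Whether an enzyme varied between arrays beyond other genes was tested with limma. Each gene's variance among the 3 arrays was divided by the variance usual for genes of that brightness, with a one-sided F test and Benjamini-Hochberg adjustment over 19938 genes. None of the 8 enzymes passed the threshold of 0.05, and 0.0% of all genes did; the smallest adjusted p over all genes was 0.744. At an unadjusted p under 0.05 the counts were 0 of 8 enzymes and 1017 of all genes, or 5.10%. At an unadjusted p under 0.1 they were 4 of 8 enzymes, Alas1, Alas2, Cpox and Fech, and 10.2% of all genes. The smallest adjusted p among the enzymes in this limma test was 0.973, for Alas2 and Cpox. The SD of Alas2 was 2.27 times the trend, that of Cpox 2.26 times, that of Alas1 2.09 times and that of Fech 2.05 times. Urod at 1.32 and Uros at 1.52 times were also above the trend, Ppox at 0.552 and Alad at 0.156 times below it. An SD above the trend was thus found for 6 of 8 enzymes and 43.9% of all genes, and a range over 0.5 log2 for 6 of 8 and 41.0%. The median SD was 0.42 over the 8 enzymes and 0.22 over all genes. The usual variance and its spread were fitted to these same genes. The shares of all genes under each unadjusted p are therefore largely set by the fit. With 3 arrays no gene at all passed the test, so it does not show that the enzymes varied no more than other genes.

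The enzymes did not share a single order of the arrays. Array 2 was highest for 4 of 8 enzymes, Alas1, Uros, Urod and Fech, against 38.6% of all genes. Array 3 was highest for Alad, Cpox and Ppox, and array 1 for Alas2 alone. Array 1 was lowest for 4 of 8, Alas1, Uros, Urod and Cpox, against 34.1% of all genes. Averaged over the 8 enzymes, the deviation from each gene's mean was -0.17 on array 1, 0.20 on array 2 and -0.04 on array 3, with SDs among the enzymes of 0.38, 0.27 and 0.31. The same averages over all genes were -0.02, 0.01 and 0.01.

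Between pairs of arrays, the median enzyme was 0.67 higher on array 2 than on array 1, with 5 of 8 enzymes higher, beside 53.7% of all genes. Alas1, Uros, Cpox, Ppox and Fech were below the limit on array 1, so this is a difference of recorded intensity. For the 7594 genes whose mean levels lay within those of the enzymes, 5.68 to 7.04, the median difference was -0.01 and the median absolute difference 0.25. From array 1 to array 3 the median enzyme differed by 0.04, but Cpox differed by 1.24 and Alas2 by -1.04. Those differences exceed in size the 95th percentile, 0.93, of absolute differences for the genes of like level. Cpox was below the limit on array 1 and Alas2 on array 3, so these are differences of recorded intensity. They describe 3 arrays and carry no test.

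**Figure D2:**
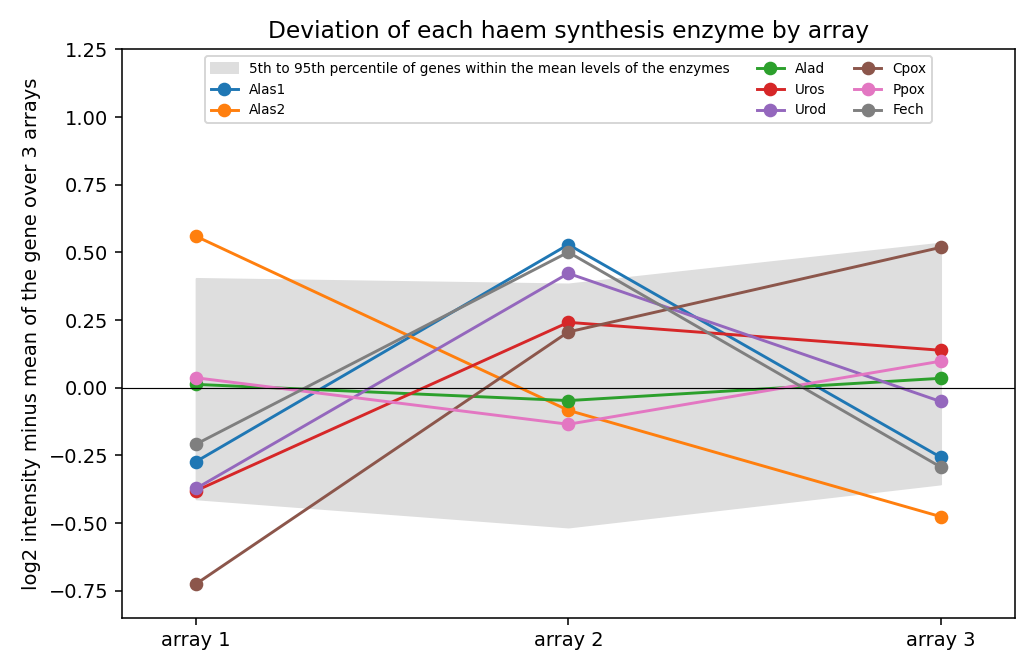
Log2 intensity minus the mean of the gene over 3 arrays (vertical axis) for each of the 8 enzymes; each line joins the values of 1 gene, the arrays have no order, and the grey band spans the 5th to 95th percentile of 7594 genes within the enzymes' mean levels. Alas2 lies above and Cpox below the band on array 1, Alas2 lies below it on array 3, Alas1, Urod and Fech lie above it on array 2, and Alad stays close to 0.

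Likeness of pattern was measured as the Euclidean distance between profiles centred on each gene's mean, over 3 arrays, where many genes must look alike. The distances use recorded values whether or not these were over the limit. Among the 28 pairs of enzymes, Alas1 and Fech were nearest at 0.079, and Alas2 and Cpox were farthest apart at 1.65. Array 2 was the only array on which both Alas1 and Fech were over the limit. Distances under 0.1 from Alas1 were found for 109 genes of 19937 and from Fech for 103. Alad and Ppox, the flattest pair, were 0.11 apart. Alas1 and Alas2 were 1.06 apart. The genes nearest to Cpox, the enzyme with the largest SD, were Cacybp at 0.0206, Chmp1b at 0.0265, Rnf130 at 0.0355, Trit1 at 0.0417 and Utp11 at 0.0497. In all, 27 genes lay within 0.1 of Cpox. Cpox was below the limit on array 1, so these distances rest in part on a value not told apart from background.

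Around the enzymes, 79 of 83 listed genes of haem and iron handling were measured, and 53 of them, 67.1%, exceeded the background limit on all 3 arrays, beside 36.8% of all genes. At the 99th percentile limit 32 of the 79 did, beside 17.4%. These shares describe lists chosen with earlier results of these data known. By list, that stricter limit left 5 of 9 supply genes, 1 of 13 transport list genes and 8 of 16 iron genes. It left 6 of 12 cluster assembly genes, 1 of 4 breakdown genes and 5 of 14 regulators. Of the genes that finish or use haem it left 6 of 11. None passed the limma test between arrays. At an unadjusted p under 0.05 there were 4 of 79, and the smallest adjusted p of that limma test among them was 0.920.

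Genes that supply glycine and succinyl-CoA exceeded the limit in 7 of 9 cases. The succinyl-CoA ligase subunits Suclg1, Sucla2 and Suclg2 were at 7.91 ± 0.48, 7.73 ± 0.48 and 8.24 ± 0.29 (SD, n = 3). The exceptions were Slc25a38, the mitochondrial glycine carrier needed for haem synthesis, at 6.01 ± 0.20, and the plasma membrane glycine transporter Slc6a9 at 5.92 ± 0.17. Dld, the shared lipoamide dehydrogenase, ranged widely, at 7.52, 9.27 and 8.98 on arrays 1, 2 and 3. It was lowest on array 1, as Cpox and 34.1% of all genes were.

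On the porphyrin and haem transport list 4 of 13 genes, 30.8%, passed the limit on all arrays, close to the share of all genes. These were Tspo, the outer mitochondrial membrane protein, at 6.76 ± 0.41, Slc25a39 at 6.68 ± 0.11, the lysosomal haem transporter Slc48a1 at 7.17 ± 0.32 and Abcg2 at 7.90 ± 0.23. Abcg2 pumps porphyrins out of cells and also expels the dyes by which stem cells form a side population. The mitochondrial ABC transporters Abcb6, Abcb8 and Abcb10 were at 5.50 ± 0.15, 6.00 ± 0.17 and 6.04 ± 0.36, and Abcb6 was below the limit on every array. Tmem14c, needed to bring the porphyrin into the mitochondrial matrix, was at 6.84 ± 0.47. Pgrmc1, which binds ferrochelatase, was at 6.11, 7.23 and 7.94 on arrays 1, 2 and 3, the widest range of this list. It was 1 of 5 on this list, and 1 of 12 among all 79 pathway genes, that missed the limit on array 1 alone. Of all genes, 10.0% did. Without array 1, 9 of the 13 genes of this list passed, beside 46.9% of all genes.

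Iron uptake and storage genes were above the limit in 10 of 16 cases. Tfrc, the transferrin receptor, was at 6.87 ± 0.38, and Fth1 and Ftl1, the ferritin subunits, were at 12.17 ± 0.14 and 8.81 ± 0.35. Ferritin genes have many processed pseudogenes, so their values are uncertain. Mitoferrin-1, Slc25a37, the iron importer of erythroid mitochondria, was at 7.21, 8.38 and 7.17 on arrays 1, 2 and 3. Its relative mitoferrin-2, Slc25a28, which serves most tissues, was at 7.30 ± 0.13. Slc25a37 was highest on array 2, like Alas1 and Fech and like 38.6% of all genes. The endosomal iron transporter Slc11a2 and the ferric reductase Steap3 were at 5.73 ± 0.23 and 6.18 ± 0.10 and were not above the limit on all arrays.

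Assembly of iron-sulphur clusters, which competes for the same mitochondrial iron, had 10 of 12 genes above the limit. The exceptions were the cysteine desulphurase Nfs1 at 6.07 ± 0.37 and the late-acting factor Iba57 at 5.18 ± 0.07. The scaffold Iscu was at 7.71 ± 0.49, the desulphurase partner Lyrm4 at 8.82 ± 0.61 and the cochaperone Hscb at 7.14 ± 0.69. Hscb was at 6.36, 7.42 and 7.65 and Lyrm4 at 8.16, 8.94 and 9.36 on arrays 1, 2 and 3. Both were lowest on array 1, as 34.1% of all genes were. Iscu, Nfu1 and Iba57 each averaged over 2 probe sets of unlike value, at 8.68 ± 0.57 and 6.74 ± 0.41 for Iscu and at 9.39 ± 0.25 and 5.52 ± 0.66 for Nfu1. Those of Iba57 were at 6.01 ± 0.10 and 4.35 ± 0.04, and the brighter one, at 5.96, 6.13 and 5.95, was over the limit on arrays 2 and 3.

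Of the 4 haem breakdown genes, 2 were above the limit on all arrays. Hmox2, the constitutive haem oxygenase, was at 7.76 ± 0.30, and the biliverdin reductase Blvra was at 6.48, 7.61 and 6.53 on arrays 1, 2 and 3. The inducible oxygenase Hmox1, at 5.87, 6.23 and 6.96, and Blvrb, at 5.93, 6.95 and 6.79, missed it on array 1 alone. All 4 genes were lowest on array 1, beside 34.1% of all genes, and all 4 passed without it, beside 46.9%.

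Regulators of the pathway were above the limit in 9 of 14 cases. Gata1 and Klf1, which switch on haem enzyme genes in erythroid cells, were at 5.88 ± 0.13 and 5.15 ± 0.27, and Klf1 was below the limit on every array. Gata2 and Tal1, which act in stem cells, were at 7.43 ± 0.14 and 7.21 ± 0.07. Nfe2 and Zfpm1, which also act in erythroid cells and are named here after their values were seen, were above the limit on all arrays at 8.98 ± 0.31 and 6.85 ± 0.16. The exceptions besides Gata1 and Klf1 were Mafk at 6.41 ± 0.21, Nrf1 at 5.96 ± 0.41 and Ppargc1a at 5.12 ± 0.42, the last over 2 probe sets with means of 4.47 and 5.78. Gata1 missed the limit on array 1 alone, at 5.75, 6.00 and 5.91. The values of Gata2 and Tal1 ranged by 0.25 and 0.15 over the arrays.

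Genes that finish or use haem were all above the limit, 11 of 11 measured. Cox10 and Cox15, which convert haem for cytochrome oxidase, were at 6.75 ± 0.35 and 6.98 ± 0.29, and Hccs, which attaches haem to cytochrome c, was at 6.73 ± 0.39. Cycs, cytochrome c, averaged 7.55 ± 0.94 over 3 probe sets that disagreed, with means of 9.16, 9.38 and 4.12, and it has many pseudogenes. Cybb, the haem subunit of the phagocyte oxidase, had the widest range, at 7.36, 9.08 and 6.81 on arrays 1, 2 and 3. Its partner Cyba was at 7.55, 7.34 and 6.52, Cyc1 at 7.13, 7.08 and 8.51, and Cyb5a at 7.62, 8.75 and 8.83. Ranges of over 1 log2 thus occurred with any of the 3 arrays highest.

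**Figure D3:**
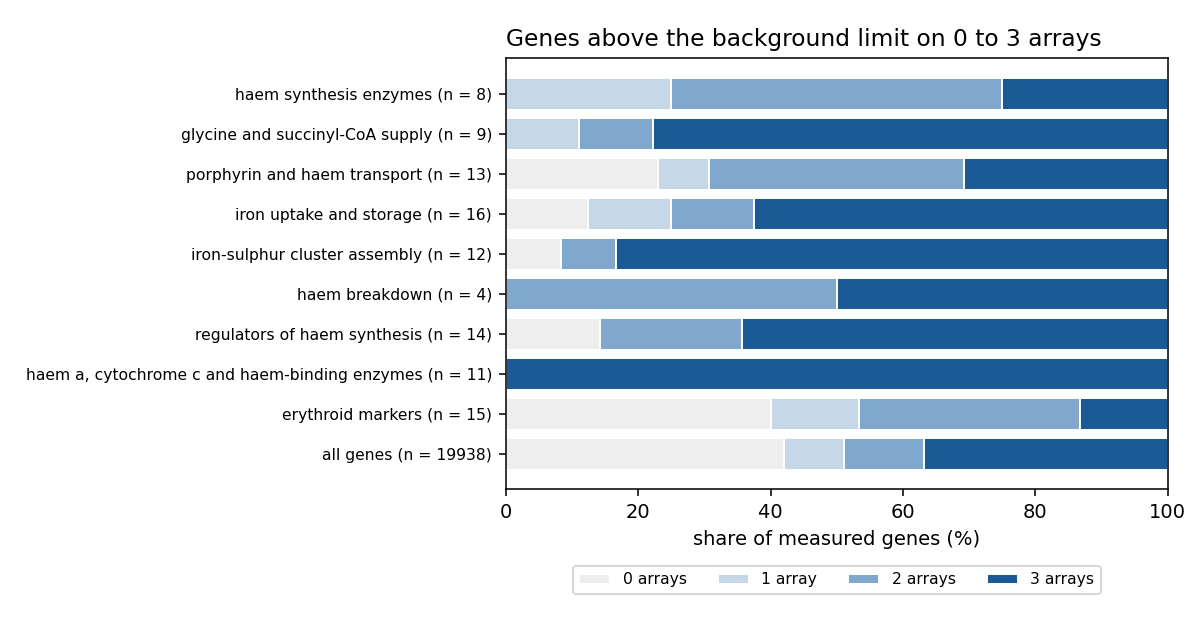
Share of measured genes (horizontal axis, %) above the background limit on 0, 1, 2 or 3 arrays, for the haem synthesis enzymes, 7 related lists, erythroid markers and all genes. The darkest segment, for all 3 arrays, covers 25.0% of the enzymes, 36.8% of all genes and every one of the 11 measured genes that finish or use haem.

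The red cell form Alas2 was set beside markers of erythroid cells. In bulk samples like these, fewer cells of a type and less RNA per cell cannot be told apart. Of 15 measured erythroid markers, 2 were above the limit on all arrays, Slc4a1, the red cell anion exchanger, at 6.52 ± 0.12 and Hemgn, also known in stem cells, at 7.10 ± 0.55. The blood group genes Rhag and Kel, with Klf1, were among 6 that were below it on every array, while Epor was at 5.90 ± 0.23 and Sptb at 6.06 ± 0.09. The summed intensity of the 15 markers was 768.9, 999.9 and 1156.5 on arrays 1, 2 and 3, and 10 of the 15 were lowest on array 1, beside 34.1% of all genes. Alas2 was highest on array 1, at an intensity of 111.0 against 71.1 and 54.2. Cpox, at 70.3, 134.0 and 166.3, had the opposite order, as had Car1, an early erythroid carbonic anhydrase, at 5.41, 7.10 and 7.60 log2. Of the 15 markers, 1 was highest on array 1, and 7 rather than 2 passed the limit without that array, a share like the 46.9% of all genes. At the 99th percentile limit 0 of the 15 passed.

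**Figure D4:**
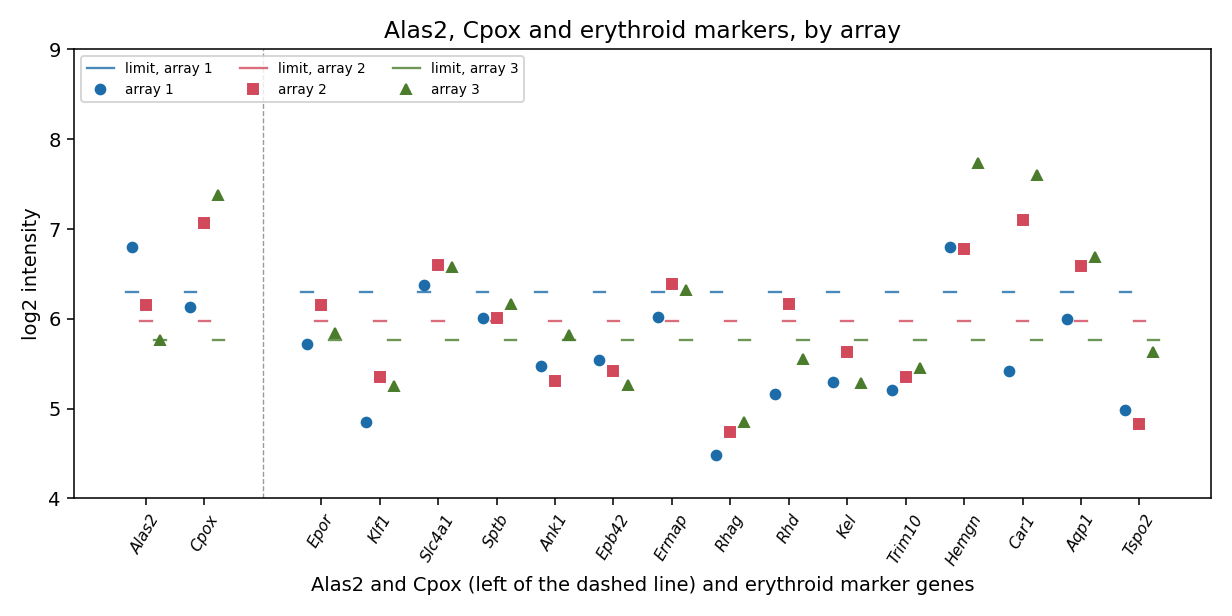
Log2 intensity (vertical axis) of Alas2 and Cpox, left of the dashed line, and of 15 erythroid markers, with circles, squares and triangles for arrays 1, 2 and 3 and short lines of the same colours for the background limit of each array. Alas2 is highest on array 1, at 6.79, as is Epb42 alone of the markers, while Cpox and 10 of the 15 markers are lowest there.

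Markers of other cell types also differed between the arrays. Of 14 granulocyte markers, 9 were above the limit, and 12 were lowest on array 1, beside 34.1% of all genes, while Mpo was highest there. Their summed intensity was 9665, 16269 and 15072 on arrays 1, 2 and 3, led by S100a8 at 12.08 ± 0.31 and S100a9 at 12.37 ± 0.38. Genes of such brightness tended to be recorded lower on array 1, which the 34.1% of all genes does not reflect. Centred on the 500 genes nearest in level, the array 1 deviation was -0.17 rather than -0.35 for S100a8 and -0.84 rather than -1.02 for Ngp. For Mpo it was 0.54 rather than 0.39. Of 8 megakaryocyte and platelet markers 5 were above the limit, with summed intensities of 706, 666 and 879. The other summed intensities on arrays 1, 2 and 3 were 1216, 1995 and 1437 for 12 monocyte, macrophage and dendritic cell markers, of which 4 were above it, and 466, 523 and 978 for 9 B cell markers, of which 1 was. Sums without the widest-ranging gene of a list were added after the values were seen. Without Lyz2, the first sum was 682, 767 and 707, and without Vpreb1, the second was 410, 440 and 459. The remaining sums were 384, 344 and 459 for 9 T and NK cell markers, of which 1 was above it, and 511, 368 and 381 for 8 mast cell, basophil and eosinophil markers, again with 1. Without Prg2 the last sum was 240, 288 and 319, so its high value on array 1 came from that gene. For 9 markers of stroma and endothelium, 5 of them above it, they were 677, 623 and 616. Without array 1 the counts above the limit were 13 of 14 for granulocytes, 5 of 9 for B cells and 2 of 8 for mast cells, basophils and eosinophils. They were 6 of 8 for megakaryocytes and platelets, 5 of 12 for monocytes, macrophages and dendritic cells and 6 of 9 for stroma and endothelium. These stand beside 46.9% of all genes. Without array 2 the count for T and NK cells was 2 of 9, beside 38.7% of all genes. At the 99th percentile limit, which 17.4% of all genes passed, the counts were 7 of 14 for granulocytes and 2 of 12 for monocytes, macrophages and dendritic cells. They were 0 for the megakaryocyte, B cell, T and NK cell, mast cell and stromal lists.

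The first measured markers of these lists, which need not be the brightest, were Pf4 at 7.23 ± 0.45 and Ppbp at 6.22 ± 0.54 for platelets, Lyz2 at 9.61 ± 0.61 and Csf1r at 5.38 ± 0.12 for monocytes and macrophages, and Cd79a at 4.21 ± 0.26 and Cd79b at 6.56 ± 0.07 for B cells. Cd3e was at 6.09 ± 0.31 and Cd3d at 4.44 ± 0.15 for T cells, Cpa3 at 4.79 ± 0.28 and Mcpt8 at 6.57 ± 0.70 for mast cells and basophils, and Cxcl12 at 6.37 ± 0.32 for stroma, while Lepr, another stromal gene, passed the limit on 0 of 3 arrays. Further markers with ranges over 1 log2 were lowest on array 1 for Gp5, Ngp, Camp, Ltf, Lcn2, Ctsg, Mmp8 and Vpreb1, of which Vpreb1 ranged most, at 5.81, 6.38 and 9.02. Nkg7 and Gzma were lowest on array 2, and Prg2, at 8.08, 6.32 and 5.96, was highest on array 1, as Alas2 and 31.6% of all genes were. Of the sort gate, Kit was at 10.01 ± 0.23 and Slamf1 at 6.51 ± 0.13, while Cd48, which the sort excluded, was at 4.61, 5.62 and 6.14. Itga2b, which encodes CD41 and was also excluded, was at 6.51, 6.36 and 6.24 and above the limit on all arrays. Cd48 and 12 of 14 granulocyte markers were lowest on array 1, as were Cpox, Uros, Urod and Alas1. Alad and Ppox were lowest on array 2, and Alas2 and Fech on array 3. B cell markers were lowest on array 1 in 4 of 9 cases and on array 3 in 4. The part of other cell types in the enzyme values was not tested.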

How the data were processed

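Total RNA of sorted cells was measured on 3 arrays. The authors deposited intensities whose scale is not stated in the sources used here. They were read as linear from their range, and every log2 value rests on that. The submitters' processing notes name RMA and Affymetrix Expression Console. Their versions, and which arrays were normalised in one run, are not stated in the sources used here. RMA gives arrays run together one distribution, so a shift shared by most genes would not be seen. The deposited values ran from 2.82 to 18384, and log2 was taken without a pseudocount. Of 35554 probe sets, 21789 named 1 gene, 1621 several and 12144 none; only the first kind was used, 21698 matched by gene ID, and probe sets of a gene were averaged, giving 19938 genes.

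Variation was tested with limma 3.58.1 in R 4.3.3 (robust trend, 2 residual and 4.34 prior degrees of freedom) and was tested on simulated data. The number of arrays limits the precision. The members and lists were chosen with earlier results of these data known. The receptor name pattern behind the background limit was settled after values had been seen. A planned comparison of the Alas1 and Alas2 proteins was not run, since no protein sequences were used here. Named genes were all enzymes; the first 4 of each pathway list, with members on the rarer side of the limit where 5 or fewer; erythroid markers above the range and the first 4; the first 2 of the other marker lists; sort genes; the 5 genes nearest to the most variable enzyme; and listed genes ranging over 1 log2. Alternatives changed the limit, normalisation, probe set rule, variance prior and arrays used.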

Additional observations from a re-analysis of the deposited data

How the results depend on the processing

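The count of haem synthesis enzymes above the background range, 2 of 8, was also 2 with the brightest probe set, with quantile normalisation and with cyclic loess. With 1 probe set for each enzyme, the brightest probe set rule could change only the limit. The count was 2 as well, and the other genes stayed at 53, with the 1215 receptor genes without a name suffix. That background was chosen after seeing the data, and Alas1 then lay below the limit on array 3. The enzyme count was 0 with the 99th percentile of the receptor genes as the limit and 0 with the median plus 3 median absolute deviations. Those limits were passed by 17.4% and 7.47% of all genes. With 1 array left out the enzyme count ran from 2 to 5. Leaving out an array can only add genes, so the lower end was fixed in advance. Without array 1 the enzyme count was 5, adding Uros, Cpox and Alas1, the last by 0.0015, beside 46.9% of all genes. The count of other haem and iron genes, 53 of 79, was 32 and 10 under those stricter limits and 53 to 65 with 1 array left out. Here too, leaving out an array could only raise the count. No enzyme passed the limma test of variation in any of 9 fits, with adjusted p from 0.829 to 0.9998 over the 72 values of the enzymes. No other gene passed in these fits either. Each fit took the usual variance from the genes it tested, so the fits are alike in that limit. Mean deviations by array kept their sign under every normalisation tried, and none moved by more than the spread between arrays. No paired analysis was possible because all samples form 1 group. Most enzymes lie near the limit, where array signal bounds what can be said.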
